A study of Homo sapiens with 6 samples.

Results

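The genes described here are the cadherins and the adherens junction proteins that hold them to one another and to actin, measured by RNA sequencing in SW480 cells after knockdown of the transcription factor ZEB1. The members were listed by gene name: CDH1, CDH2, CDH3, CDH11 and CDH24 for the cadherins, CTNNA1, CTNNB1 and CTNND1 for the catenins, and NECTIN2 and AFDN for the nectin system. Of these 10 genes, 9 had a row among the 32029 genes of the count tables, and CDH2 was not analysed here. SW480 is a human colorectal cancer cell line. The control libraries (siNC 1 to 3) came from cells labelled WT that had received a control siRNA, named siNC in the labels and siControl in the series record, and the other libraries (siZEB1 1 to 3) came from cells labelled as ZEB1 knockdown that had received siZEB1. RNA of both groups was taken 48 h after transfection. The siRNA sequences, and whether 1 siRNA or several were used, are not given in the sources used here, and a transient knockdown in a single cell line limits the groups as a model. The study states 3 biological replicates, but the labels do not say what separates them, so the p-values measure the spread between these libraries.

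Adherens junctions join neighbouring epithelial cells. The outer part of a classical cadherin binds a cadherin on the next cell, while its tail binds beta-catenin (CTNNB1) and p120-catenin (CTNND1), and beta-catenin binds alpha-catenin (CTNNA1), which connects to actin. Nectins form a parallel adhesion system that is joined to actin by afadin (AFDN). E-cadherin (CDH1) is the main cadherin of the colon epithelium, and ZEB1 is a zinc finger repressor that binds CACCTG sequences, known for its action on CDH1 in cells that lose epithelial character.

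The question here was which parts of this machinery differ in RNA level when ZEB1 is lowered. Levels are given as CPM, a read count scaled by library size with TMM factors, and changes as log2 of siZEB1 over siNC with the standard error (SE) of the fit. A gene was called at an adjusted p under 0.05 in edgeR's quasi-likelihood test over the 14996 genes that passed the filter on low counts, which each of the 9 genes did. The libraries held 19040636 to 22357633 counted reads. ZEB1 itself (ENSG00000148516, chromosome 10, 31318495 to 31529814) stood at 58.6, 57.0 and 47.1 CPM in siNC 1 to 3 and at 7.20, 6.86 and 8.46 CPM in siZEB1 1 to 3. In edgeR's quasi-likelihood test this is -2.85 on the log2 scale (SE 0.11, adjusted p = 4.85e-12).

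Of the 9 genes, 4 were called higher with siZEB1 (CDH1, CDH3, NECTIN2 and AFDN), 1 was called lower (CDH11), and CDH24, CTNNA1, CTNNB1 and CTNND1 were not called. Over all genes tested, 19% were called higher, 21.2% lower and 40.2% in either direction, so a call alone is common in this comparison. What sets CDH1 and CDH3 apart is size: by absolute log2 fold change they ranked 6 and 9 of the 14996 genes, whereas NECTIN2 and AFDN ranked 5224 and 7277. With a rule of more than 1.5-fold and an unadjusted p under 0.05, which 7.21% of all genes met upward and 9.35% downward, 2 of the 9 genes were higher (CDH1 and CDH3) and 1 was lower (CDH11). The groups did not overlap for 6 of the 9 genes, the 5 called genes and CTNNB1, beside 49.5% of all genes tested. The median log2 fold change of the 9 genes was 0.15, against -0.01 over all genes tested.

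**Figure D1:**
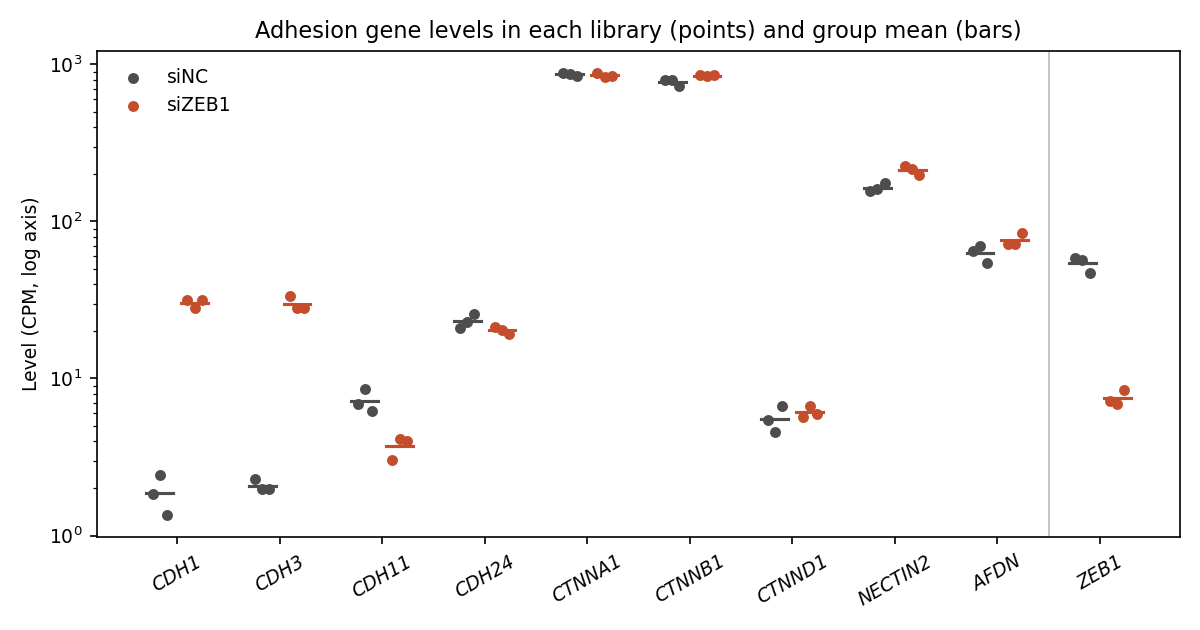
Level of each gene in CPM (log axis) in the 3 siNC libraries (grey points) and the 3 siZEB1 libraries (orange points), with short bars at the group means and ZEB1 to the right of the line. CDH1 and CDH3 lie near 2 CPM in siNC and near 30 CPM in siZEB1, while CTNNA1 and CTNNB1 stay between 734 and 884 CPM in every library.

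CDH1 (ENSG00000039068, plus strand of chromosome 16, 68737225 to 68835548) encodes E-cadherin. It had 39, 54 and 26 reads in siNC 1 to 3, which is 1.83, 2.41 and 1.35 CPM, and 594, 540 and 606 reads in siZEB1 1 to 3, which is 31.5, 28.1 and 31.7 CPM. The lowest siZEB1 library lay far above the highest siNC library, and the siZEB1 libraries were close to each other. In bulk RNA such as this, more cells with a transcript and more of it per cell cannot be told apart. The log2 fold change was 4.01 (SE 0.14, adjusted p = 2.45e-12, edgeR's quasi-likelihood test), a 16.1-fold rise with a 95% confidence interval of 13.1 to 19.8. The control level rests on 119 reads in all, with a coefficient of variation of 28.5% among the siNC libraries, so the size of the fold is less certain than its direction. Leaving out each library in turn gave log2 fold changes between 3.83 and 4.24.

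CDH3 (ENSG00000062038, plus strand of chromosome 16, 68636189 to 68722616) encodes P-cadherin, a classical cadherin typical of basal epithelial layers. It stood at 2.30, 1.96 and 1.97 CPM in siNC 1 to 3 and at 33.4, 28.2 and 28.0 CPM in siZEB1 1 to 3. The groups were again far apart, with narrower spread in the controls than for CDH1. The rise was 14.3-fold (95% confidence interval 11.9 to 17.2), or 3.84 on the log2 scale (SE 0.13, adjusted p = 1.16e-12, edgeR's quasi-likelihood test). The intervals of CDH1 and CDH3 overlap, and the difference between their folds was not tested.

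CDH11 (ENSG00000140937, minus strand of chromosome 16, 64943753 to 65126112) encodes OB-cadherin, a type II cadherin of mesenchymal cells and osteoblasts. It had 147, 192 and 119 reads in siNC 1 to 3 and 57, 79 and 76 reads in siZEB1 1 to 3, or 6.91, 8.57 and 6.17 CPM against 3.02, 4.11 and 3.97 CPM. Each siZEB1 library lay below each siNC library. The level fell by 48.9% (95% confidence interval -59.8% to -34.9%), or by 0.97 on the log2 scale (SE 0.16, adjusted p = 0.000164, edgeR's quasi-likelihood test).

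CDH24 (ENSG00000139880, minus strand of chromosome 14, 23047062 to 23057538) encodes another type II cadherin. It stood at 21.1, 22.8 and 25.7 CPM in siNC 1 to 3 and at 21.1, 20.4 and 19.2 CPM in siZEB1 1 to 3. The groups overlapped at their edge. Its log2 fold change of -0.19 (SE 0.09, adjusted p = 0.104, edgeR's quasi-likelihood test) did not pass the test. The call turns on one library: without siNC 1, the log2 fold change was -0.26 and the adjusted p was 0.0430, and over the 12 alternatives the adjusted p ran from 0.0430 to 0.331.

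**Figure D2:**
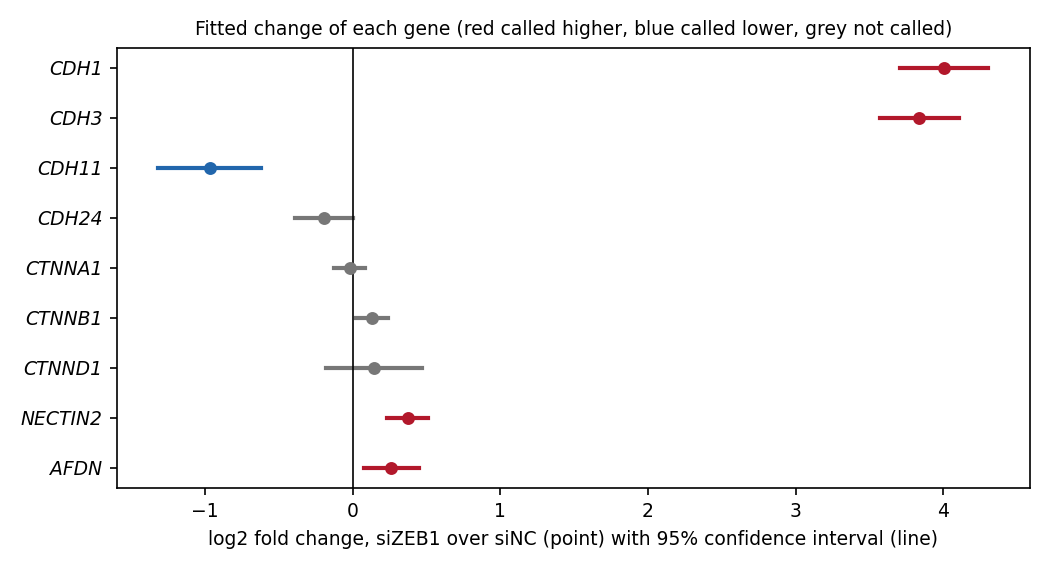
Fitted log2 fold change of siZEB1 over siNC (points) with its 95% confidence interval (lines) for the 9 genes, red where called higher, blue where called lower and grey where not called. CDH1 at 4.01 and CDH3 at 3.84 stand far to the right of the other 7 genes, which lie between -0.97 and 0.37.

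Set per length, the make-up of the RNA of the member cadherins differed between the groups. Levels of different genes were compared as CPM per kilobase of annotated exons, over the 4 member cadherins that had a row. Cadherins outside the members are not part of this sum. Among them is CDH13, named after its values were seen, with group means of 27.4 CPM in siNC and 27.6 CPM in siZEB1 over 11187 exonic bases. In siNC 1 to 3, CDH24 made up 82.6%, 81.9% and 87.3% of this sum and CDH1 4.36%, 5.25% and 2.78%. In siZEB1 1 to 3, CDH24 made up 34.6%, 36.8% and 34.0% and CDH1 31.2%, 30.7% and 34.1%. CDH24 thus went from most of the sum to about the same share as CDH1, while its own level was not called changed.

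The mean share of CDH3 was 4.57% ± 0.756 (SD, n = 3) in siNC and 31.1% ± 1.57 (SD, n = 3) in siZEB1, close to that of CDH1 in both groups. CDH11 went the other way, from 7.36% ± 1.38 to 1.81% ± 0.373 (SD, n = 3 each). The sum of the 4 cadherins was 6.80, 7.43 and 7.85 CPM per kilobase in siNC 1 to 3 and 16.3, 14.8 and 15.0 CPM per kilobase in siZEB1 1 to 3, a ratio of means of 2.09. For each share and for the sum the groups did not overlap, and the two-sided exact permutation test gave p = 0.1, the smallest that 3 against 3 libraries allow. The difference in the CDH11 share was -5.55 percentage points with the union of exons as the length and -9.64 with the longest transcript.

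**Figure D3:**
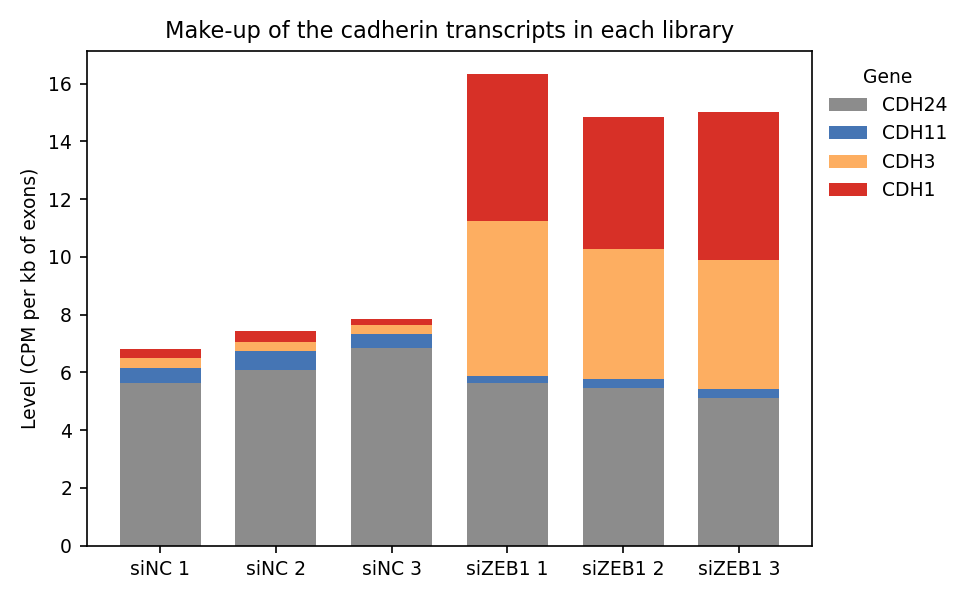
Stacked bars of CPM per kilobase of exons for CDH24 (grey), CDH11 (blue), CDH3 (orange) and CDH1 (red) in each of the 6 libraries. The bars reach 6.80 to 7.85 in siNC, mostly CDH24, and 14.8 to 16.3 in siZEB1, where CDH24, CDH3 and CDH1 take similar parts.

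The member catenins, which bind the cadherin tails directly or through beta-catenin, moved little beside CDH1 and CDH3. CTNNA1 (ENSG00000044115, chromosome 5, 138610967 to 138935034) stood at 879, 871 and 845 CPM in siNC 1 to 3 and at 884, 836 and 840 CPM in siZEB1 1 to 3. The groups overlapped, and the log2 fold change was -0.02 with a 95% confidence interval of -0.12 to 0.08. With 16075 reads or more in each library, counting error was small for this gene.

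CTNNB1 (ENSG00000168036, chromosome 3, 41194741 to 41260096) encodes beta-catenin, which also acts as a transcriptional coactivator in Wnt signalling. It stood at 795, 799 and 734 CPM in siNC 1 to 3 and at 854, 841 and 853 CPM in siZEB1 1 to 3. The 3 siZEB1 libraries lay above the 3 siNC libraries, by a small margin. The log2 fold change of 0.13 (SE 0.05, adjusted p = 0.0520, edgeR's quasi-likelihood test) just missed the threshold, and its 95% confidence interval was 0.02 to 0.24. It was called under 2 of the 12 alternatives, with median-of-ratios size factors (adjusted p = 0.0399) and with a minimum of 10 counts in every library (adjusted p = 0.0495), and the adjusted p over all 12 ran from 0.0399 to 0.188.

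CTNND1 (ENSG00000198561, chromosome 11, 57753243 to 57819546) encodes p120-catenin, which keeps cadherins at the cell surface. It had only 115, 102 and 129 reads in siNC 1 to 3 and 108, 129 and 113 reads in siZEB1 1 to 3, and the groups overlapped. The log2 fold change was 0.15 with a 95% confidence interval of -0.18 to 0.47. Its level is uncertain: of its 50-base stretches, 3.73% occur in transcripts of overlapping genes, among them the readthrough gene TMX2-CTNND1. A further counted entry for this readthrough had 0 to 5 reads, under an identifier that the transcript annotation used here lacks. The 3.73% therefore does not measure the overlap in the annotation the authors counted with, which was not tested. How the counting treated a read that falls in more than one gene is not given in the sources used here.

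Set against beta-catenin, the summed level of the 4 cadherins was 10.2%, 11.1% and 12.8% of the CTNNB1 level per kilobase in siNC 1 to 3 and 22.8%, 21.0% and 21.0% in siZEB1 1 to 3. The ratio was higher in each siZEB1 library than in each siNC library (two-sided exact permutation p = 0.1, the smallest possible). The difference of the means was 10.3 percentage points with the union of exons as the length and 5.36 with the longest transcript.

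NECTIN2 (ENSG00000130202, chromosome 19, 44846175 to 44889228) encodes a nectin, an immunoglobulin-like adhesion receptor. It stood at 156, 162 and 176 CPM in siNC 1 to 3 and at 225, 217 and 197 CPM in siZEB1 1 to 3, with no overlap. The level was 1.30-fold higher (95% confidence interval 1.18 to 1.43), which is 0.37 on the log2 scale (SE 0.07, adjusted p = 0.000245, edgeR's quasi-likelihood test). This call was kept under each of the 12 alternatives.

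AFDN (ENSG00000130396, plus strand of chromosome 6, 167826922 to 167972023) encodes afadin, which binds the nectin tail and actin. It stood at 64.9, 69.7 and 54.8 CPM in siNC 1 to 3 and at 71.9, 71.4 and 84.0 CPM in siZEB1 1 to 3. The groups did not overlap, but the gap between siNC 2 and siZEB1 2 was small. The log2 fold change was 0.26 (SE 0.09, adjusted p = 0.0263, edgeR's quasi-likelihood test), a rise of 19.8% with a 95% confidence interval of 5.24% to 36.4%. The call was lost without siNC 3, the lowest library, or siZEB1 3, the highest: the log2 fold change was 0.17 without siNC 3 (adjusted p = 0.0839) and 0.18 without siZEB1 3 (adjusted p = 0.121). Over the 12 alternatives the adjusted p of AFDN ran from 0.00524 to 0.121.

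Promoter sequence from RefSeq (GRCh38.p14) was at hand for CTNNA1, CTNNB1, NECTIN2 and AFDN among the genes with a row, and the 250 bases before each start were searched for CACCTG on both strands, which reads CAGGTG on the other. Of 35116 such windows, 6143 (17.49%) held at least 1 match. The windows of CTNNA1, CTNNB1 and NECTIN2 held none, and that of AFDN held 4, a number that 43 windows (0.122%) reached or passed. The AFDN window, chr6:167827385-167827634 on the plus strand, is shown because it is the only one of a called gene with a match. The capitals mark CACCTG, at 150, 126, 114 and 16 bases before the RefSeq start.
AFDN: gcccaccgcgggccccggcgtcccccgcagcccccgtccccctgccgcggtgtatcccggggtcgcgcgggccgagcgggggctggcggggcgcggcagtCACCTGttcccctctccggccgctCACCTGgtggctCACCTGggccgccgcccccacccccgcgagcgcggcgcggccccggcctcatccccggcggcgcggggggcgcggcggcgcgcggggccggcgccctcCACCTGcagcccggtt
In GENCODE 29 this window lies inside the span of AFDN, which there starts at 167826922, and overlaps 0 exonic bases. A match of 6 letters is no measured binding site.

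By level per kilobase of the union of exons, the genes fell into a steep order. In siNC the group means ran from 97.9 for CTNNA1, 65.1 for CTNNB1 and 43.9 for NECTIN2 to 6.19 for CDH24, 4.60 for AFDN, 0.631 for CTNND1, 0.540 for CDH11, 0.334 for CDH3 and 0.302 CPM per kilobase for CDH1. The libraries of CTNND1 and CDH11 overlapped, as did those of CDH3 and CDH1, while the other neighbours in this order did not. In siZEB1 the first 3 genes kept their order, at 96.6, 71.2 and 56.9 CPM per kilobase. AFDN at 5.52, CDH24 at 5.40, CDH1 at 4.92 and CDH3 at 4.79 followed, each overlapping its neighbour. CTNND1 at 0.695 and CDH11 at 0.276 came last. The place of CTNND1 in both groups rests on the uncertain level described above, and the part of shared reads in it was not tested. Part of this order depends on the length: per kilobase of the longest transcript, the siZEB1 mean of AFDN was 9.97, above each library of CDH1 (6.22), CDH3 (6.06) and CDH24 (5.70 CPM per kilobase), and in siNC AFDN (8.32) stood before CDH24 (6.53) and CDH11 (1.05) before CTNND1 (0.847). With either length, CDH1 and CDH3 were the lowest in siNC and overlapped CDH24 in siZEB1.

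CDH3 and CDH1 are neighbours on chromosome 16, both on the plus strand, with 14608 bases between the end of CDH3 and the start of CDH1. The genes within 500 kb on either side were looked at after the values of both were known. Besides CDH1 and CDH3, 17 genes there were tested, of which 4 were called higher and 6 lower. Over all genes tested, the calls were 19% higher, 21.2% lower and 40.2% in either direction. The log2 fold changes of these 17 genes ran from -1.05 to 1.19, and their median was -0.03. The nearest tested gene before CDH3, ZFP90, had a log2 fold change of 0.25 (adjusted p = 0.0611, edgeR's quasi-likelihood test), and the nearest after CDH1, TANGO6, had 0.00 (adjusted p = 0.997). ESRP2, an epithelial splicing regulator in the same interval, rose by 0.43 (adjusted p = 6.03e-05).

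**Figure D4:**
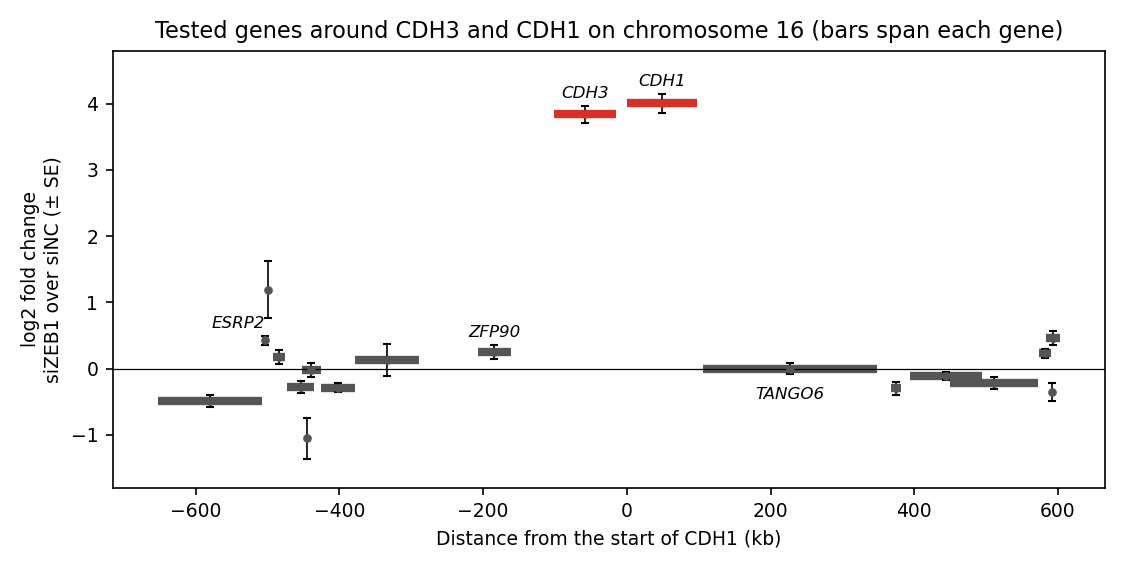
log2 fold change of siZEB1 over siNC (points, bars for the gene span, error bars for the SE) for the tested genes within 500 kb of CDH3 and CDH1, against the distance from the start of CDH1 in kb. CDH3 at 3.84 and CDH1 at 4.01 (red) stand alone above the 17 other genes, which lie between -1.05 and 1.19. Both ends of that range are entries at low level, not annotated as protein-coding.

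Across the 6 libraries CDH1 and CDH3 followed each other with Pearson's r = 0.992 on log2 CPM, and CDH1 and CDH11 had r = -0.893. These values describe 6 points in 2 groups. Of 13188 genes with a mean of at least 1 CPM, 150 reached r = 0.99 or more with CDH1, led by RIOK1, RIN2 and SUPT16H, whose log2 fold changes were 0.61, 1.31 and 0.60. For CDH3, 217 genes did, led by SDC4, a syndecan (log2 fold change 1.06), SYK, a tyrosine kinase (1.87), and RAB17, a small GTPase of epithelial cells (2.16). For CDH11, 11 genes did, led by FN3KRP, RASL11A and DUXAP8, with log2 fold changes of -0.27, -1.16 and -0.38.

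The rest of the cadherin family moved in both directions. Of 35 listed genes, 24 had a row and 15 were tested (median log2 fold change 0.04). Of these, 3 were called higher and 4 lower, beside 19% and 21.2% over all genes tested. In either direction 46.67% were called, beside 40.2% over all genes tested. CDH26 rose by 1.79 (SE 0.37, adjusted p = 0.000868, edgeR's quasi-likelihood test) from 6, 9 and 6 reads in siNC 1 to 3 to 21, 19 and 27 reads in siZEB1 1 to 3, and is named after its values were seen because its level lay under the minimum for naming. The calsyntenins CLSTN3 and CLSTN1 rose by 0.52 and 0.23 on the log2 scale.

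The planar polarity cadherin CELSR2 stood at 46.7, 51.1 and 48.5 CPM in siNC 1 to 3 and at 26.6, 24.8 and 31.5 CPM in siZEB1 1 to 3, well below. It had the lowest log2 fold change of the list, -0.82 (SE 0.09, adjusted p = 1.22e-06, edgeR's quasi-likelihood test). FAT1, CDHR3 and CELSR1 were also called lower, at -0.38, -0.29 and -0.29. The calls of CDHR3 and CELSR1 were kept under 9 and 10 of the 12 alternatives. CDH17, the intestinal LI-cadherin, had 0 to 5 reads in each library and was not tested. Of 12 listed nonclustered protocadherins, 3 were tested, and PCDH12 was called higher (0.89) and PCDH1 lower (-0.54). The call of PCDH12, at about 1 CPM, was kept under 7 of the 12 alternatives.

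Among 30 further genes of the junction plaque and the nectin system, 27 were tested (median log2 fold change -0.12). Of these, 6 were called higher and 10 lower, beside 19% and 21.2% over all genes tested. JUP encodes plakoglobin, a relative of beta-catenin that also binds cadherin tails in adherens junctions and desmosomes. It stood at 57.2, 60.4 and 66.4 CPM in siNC 1 to 3 and at 128, 119 and 110 CPM in siZEB1 1 to 3, and its log2 fold change of 0.96 (SE 0.07, adjusted p = 3.31e-08, edgeR's quasi-likelihood test) was the highest of the list. PLEKHA7, a partner of p120-catenin, rose by 0.55 (adjusted p = 0.00612).

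VCL, which encodes vinculin, a protein that binds alpha-catenin and actin, stood at 434, 454 and 396 CPM in siNC 1 to 3 and at 267, 255 and 272 CPM in siZEB1 1 to 3. It fell by 0.69 on the log2 scale (SE 0.06, adjusted p = 1.11e-07, edgeR's quasi-likelihood test). The actin crosslinker ACTN4 and the GTPase-activating protein ARHGAP35 were called lower as well, with log2 fold changes of -0.52 and -0.68. ARVCF, a relative of p120-catenin, fell by 0.89 on the log2 scale (adjusted p = 0.00419), from a level near 3 CPM.

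NECTIN2 was the only nectin called higher among those tested. NECTIN1 was called lower, at 264, 272 and 267 CPM in siNC 1 to 3 and 220, 201 and 197 CPM in siZEB1 1 to 3 (log2 fold change -0.38, adjusted p = 6.88e-05, edgeR's quasi-likelihood test). NECTIN3 had a log2 fold change of -0.98 at about 1 CPM and did not pass the test (adjusted p = 0.0530). NECTIN4 and the nectin-like receptor PVR, at 0.02 and -0.13, and CTNNAL1, an alpha-catenin relative at 0.04, did not pass the test either.

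**Figure D5:**
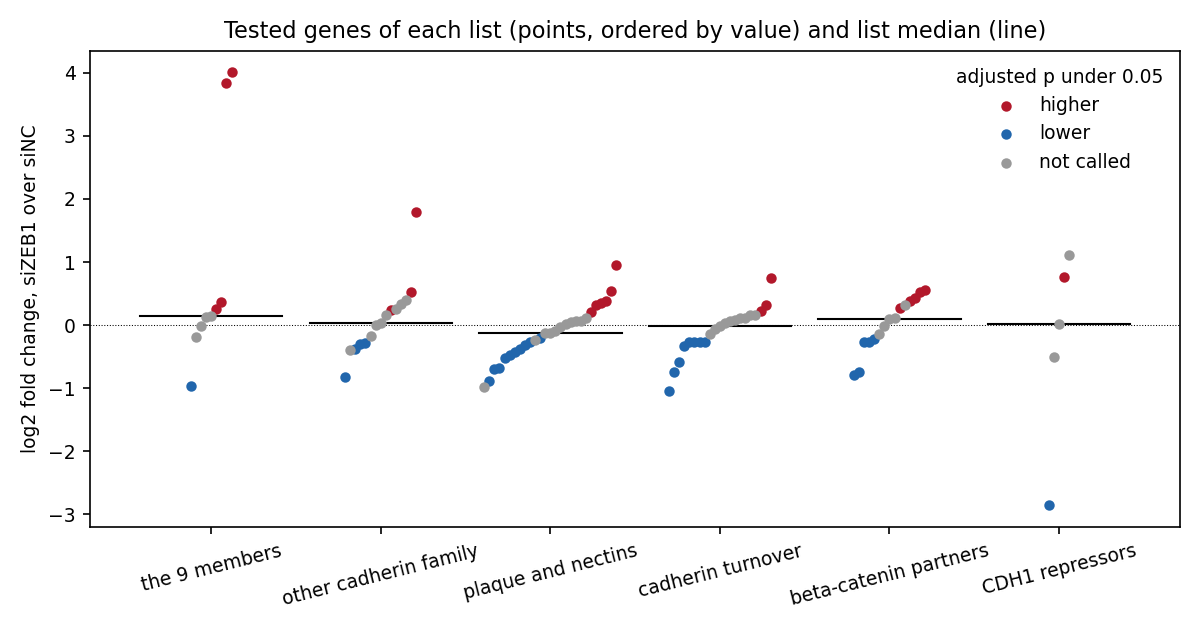
log2 fold change of siZEB1 over siNC for each tested gene of 6 lists, the 9 genes, the other cadherins, the plaque and nectin genes, and those of cadherin turnover, beta-catenin partners and CDH1 repressors (points ordered by value within a list), red where called higher, blue where called lower and grey where not called, with a line at the list median. CDH1 and CDH3 are the only genes of these 6 lists above 3, and their medians lie between -0.12 and 0.15.

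Of 22 genes that act on cadherin turnover and phosphorylation, 21 were tested (median log2 fold change -0.01). Of these, 3 were called higher and 8 lower, beside 19% and 21.2% over all genes tested. ARF6, a GTPase of E-cadherin endocytosis, stood at 145, 145 and 143 CPM in siNC 1 to 3 and at 71.6, 68.9 and 69.0 CPM in siZEB1 1 to 3. It fell by 1.04 on the log2 scale in edgeR's quasi-likelihood test (SE 0.06, adjusted p = 9.91e-10), with little spread within either group. The receptor phosphatase PTPRU, the adaptor NUMBL and the kinase SRC had log2 fold changes of -0.75, -0.58 and -0.32, while the protease ADAM15 had 0.74.

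Of 16 genes for partners of beta-catenin in its degradation and in transcription, 15 were tested (median log2 fold change 0.09). Of these, 5 were called higher and 5 lower, beside 19% and 21.2% over all genes tested. The ubiquitin ligase subunit BTRC and the transcription factor TCF7 were called lower, with log2 fold changes of -0.80 and -0.74. GSK3B and AXIN1 of the destruction complex were called higher, by 0.56 and 0.43, as were TCF7L1 (0.53) and PYGO2 (0.38). Other genes of that complex, named after their values were seen, were CSNK1A1, called higher (0.28), APC, called lower (-0.22), and GSK3A, not called (-0.14). The call of APC (adjusted p = 0.0497, edgeR's quasi-likelihood test) was kept under 3 of the 12 alternatives.

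Of 12 transcription factors described as repressors of CDH1, ZEB1 included, 9 had a row and 5 were tested. ZEB1 was the only one called lower, and TCF3 was called higher, from 115, 122 and 130 CPM in siNC 1 to 3 to 207, 213 and 202 CPM in siZEB1 1 to 3 (log2 fold change 0.76, SE 0.06, adjusted p = 5.24e-08, edgeR's quasi-likelihood test). SNAI1, SNAI2 and SNAI3, named after their values were seen, had log2 fold changes of 0.01, -0.50 and 1.12 and did not pass the test, and ZEB2 had 0 or 1 read in each library.

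The labelled cell type was checked against colon epithelial markers, of which 9 of 10 had a row and 7 were tested. Of these, 3 were called higher and 1 lower, beside 19% and 21.2% over all genes tested. Their summed level was 4815 to 5438 CPM in siNC and 5330 to 6002 CPM in siZEB1, most of it KRT8. The intestinal marker CDH17 was at or near 0 in both groups, and CDX1 had no row. KRT20 had 2 to 20 reads in each library and GPA33 had 4 to 17. KRT8, KRT18 and KRT20 were not called, with log2 fold changes of 0.03, 0.04 and 0.32. EPCAM, an epithelial adhesion molecule outside the cadherin family, rose by 3.05 on the log2 scale, as did villin (VIL1) by 2.34 and keratin 19 (KRT19) by 1.62, and CDX2, an intestinal transcription factor, fell by 1.30. Genes on the other strand share 44.0% of the exon length of VIL1. Summed markers of fibroblasts were at 13.4 to 15.0 CPM in siNC and 13.4 to 15.3 CPM in siZEB1, most of it COL1A1 and with LUM and THY1 at 0 or 1 read, those of endothelium at 2.12 to 2.95 and 1.62 to 2.65 CPM, and those of blood cells at 0.658 to 1.04 and 1.09 to 1.17 CPM.

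Genes on the other strand share 11.1% of the exon length of CDH3, 5.89% of that of CTNNA1, 5.62% of that of CDH1 and 3.42% of that of NECTIN2. Genes outside the members overlap too, for example ACTN4 by 14.2%, VCL by 11.1% and ZEB1 by 4.23% on the other strand. CSNK1A1 shares 37.4% of its exon length with a gene on the same strand. Whether the counting used the strand is not given in the sources used here. The part of such reads in the values was not tested.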

How the data were processed

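RNA from 6 SW480 libraries was sequenced, 3 for siNC and 3 for siZEB1. The authors deposited 1 table of raw read counts per library, with no normalization. Per the labels' processing notes, Trimmomatic, HISAT2, SAMtools and featureCounts were used with hg38, without versions. The annotation release and the strand setting are not given in the sources used here. The counts were filtered by edgeR's filterByExpr (14996 of 32029 genes kept), scaled by TMM (factors 0.9894 to 1.007) and compared by the two-sided quasi-likelihood test of edgeR without covariates, with Benjamini-Hochberg adjustment. Gene positions and exon lengths are from GENCODE 29 (31059 identifiers matched). The script was tested on simulated data. Software was Python 3.11.15 (pandas 2.3.3, scipy 1.17.1, numpy 2.4.6) and R 4.3.3 (DESeq2 1.42.0, limma 3.58.1, edgeR 4.0.16).

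The members and lists were chosen with earlier results of these data known. All members with a row were named, and of each list up to 6 called genes with a mean of at least 1 CPM by size of change, together with the nectins, JUP, VCL, CDH17, PLEKHA7, CTNNAL1, ARVCF and PVR. A gene that meets this rule is not reported here. The most alike were the 3 genes with the highest Pearson correlation with CDH1, CDH3 and CDH11. Replicates differed by 2.26 to 9.504 times the sampling noise (chi-square over degrees of freedom), so none was a copy. Alternatives were DESeq2's Wald test, other size factors, other filters, the replicate number as a block, each library left out, another call rule and another gene length.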

Additional observations from a re-analysis of the deposited data

How the results depend on the processing

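CDH1, CDH3, CDH11, NECTIN2 and ZEB1 kept their direction and their call under each of the 12 alternatives, and no log2 fold change of the 9 genes changed sign. Leaving out each library in turn gave log2 fold changes of 0.17 to 0.34 for AFDN and -0.26 to -0.12 for CDH24, and CTNNB1 was called with median-of-ratios size factors (0.14) and with at least 10 counts in every library (0.13). Same-numbered libraries did not deviate together (r = -0.0517, -0.08825 and -0.2001 for numbers 1 to 3), so the numbers do not pair them. With the replicate number as a block, AFDN lost its call (log2 fold change 0.26, adjusted p = 0.0617), no other call among the 9 genes changed, and 2289 genes were called higher and 2679 lower. With more than 1.5-fold and an unadjusted p under 0.05, the counts were 2 of the 9 genes higher, 1 higher and 1 lower among the other cadherins, 1 higher and 4 lower among the plaque and nectin genes, and 1081 higher and 1402 lower (2849 and 3186 by adjusted p) among all genes. Leaving out each library gave 1 to 2 of the 9 genes called lower and 2 to 5 of the other cadherins called lower (2 without siNC 2). The call of PCDH12 was lost without siNC 1, siNC 2, siZEB1 1 or siZEB1 2 and in DESeq2's Wald test, and the turnover genes called lower went from 8 to 5 without siZEB1 2. Among the repressors, 2 in place of 1 were called higher without siNC 3, without siZEB1 1 or with no filter on low counts. The planned ratio of CDH1 to CDH2 gave no value. Few reads limit CDH1 and CDH3 in siNC, CDH11 and CTNND1.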
